A study of Mus musculus with 10 samples.

Results

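The genes described here make the lipid of pulmonary surfactant and the stored fat of the cell: the enzymes that build fatty acids, lengthen, desaturate and activate them, and join them into phospholipid and triglyceride. The list was set by symbol and holds 47 genes, of which 41 had a probe set of their own among the 17919 genes measured. Scd2, Acsl3, Chkb and Cept1 share their probe sets with another gene symbol, and Elovl3 and Acsl1 matched no named probe set, so these 6 have no value here. All 41 had a mean level above 6.3, the 20th percentile of all log2 values.

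Entire lungs were taken from mouse embryos at E18.5. Those embryos, on a background labelled C57BL/6 and 129X1,129S6, were compared on Affymetrix arrays, with 1 array per lung. The 5 Hdac3 knockout lungs (KO, numbered 1 to 5) are labelled Shhcre:Hdac3fl/fl, so that Cre recombinase expressed from the Shh locus, which is active in lung epithelium, removes floxed Hdac3 there. The 5 control lungs (numbered 1 to 5) are labelled Shhcre, with no Hdac3 allele stated. Dams were Hdac3 fl/fl and sires Hdac3 fl/+ with ShhCre, so every embryo of that cross carries at least 1 floxed allele, and a Cre-positive control would be fl/+. Cells that never expressed Shh keep Hdac3 in the KO lungs, and in whole lung fewer cells of a type and less RNA per cell cannot be told apart. Hdac3, the targeted deacetylase, had log2 levels of 10.57, 10.54, 10.61, 10.34 and 10.43 in the KO lungs and 10.80, 10.90, 10.80, 10.67 and 10.90 in the control lungs, and was lower by 19.6% (adjusted p = 0.0203). Whether its probe set covers the deleted part of the gene was not tested.

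Fatty acid synthesis starts when citrate or acetate is turned into cytosolic acetyl-CoA, which acetyl-CoA carboxylase and fatty acid synthase extend to palmitate. Elongases and desaturases modify the chain, acyl-CoA synthetases activate it, and the glycerol phosphate route adds chains to a backbone that lipins hand on as diacylglycerol to triglyceride or to phosphatidylcholine. Alveolar type II (AT2) cells run this pathway at high rate before birth, because surfactant is rich in dipalmitoyl phosphatidylcholine and phosphatidylglycerol, and neighbouring lipofibroblasts store triglyceride.

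Acsl4, which activates arachidonic acid, rose by 46.5% and Elovl5, which elongates polyunsaturated fatty acids, by 23.1%. They were the 2 of 41 members called higher by limma at an adjusted p under 0.05, and 0 were called lower, against 1.54% and 1.58% of all genes (3.12% in either direction). At an unadjusted p under 0.05, 8 members were higher and 5 lower, against 6.84% and 6.71% of all genes (13.5% in all). With the replicate number as a block, 5 members rose (Acsl4, Elovl5, Gpam, Acaca and Me1) and 3 fell (Acss2, Cds1 and Lpin1), against 2.28% and 2.44% of all genes (4.72% in all). The block pairs a KO with a control lung of the same number. The median log2 change was 0.02 over the members and 0.00 over all genes, with 23 members above 0 and 18 below. The median size of a change, without its sign, was 0.10 for the members and 0.06 for all genes. The KO and control lungs did not overlap for 5 members (12.2%), 3 higher and 2 lower in KO, against 2.44% and 2.66% of all genes (5.11% in all). All 5 same-numbered pairs were higher in KO for 9 members and lower for 6, against 8.7% and 9.07% of all genes (17.8% in all).

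The regions upstream of 3 of these genes are printed. Elovl5 and Acsl4 are the members called in both the fit without and the fit with the block. Pcyt1a was called in neither fit and was chosen after its values were seen. Its KO and control lungs did not overlap, and it was the only member whose window held the sterol regulatory element searched for. Whether that site bears on its level was not tested. Each is 300 bases, from 250 before to 50 after the annotated start, from RefSeq on GRCm38.p6, and capitals mark a motif match on either strand. Elovl5 is at chr9:77917115-77917414 (plus strand), Acsl4 at chrX:142390486-142390785 (minus strand) and Pcyt1a at chr16:32430671-32430970 (plus strand), the most upstream of its 3 windows.
Elovl5: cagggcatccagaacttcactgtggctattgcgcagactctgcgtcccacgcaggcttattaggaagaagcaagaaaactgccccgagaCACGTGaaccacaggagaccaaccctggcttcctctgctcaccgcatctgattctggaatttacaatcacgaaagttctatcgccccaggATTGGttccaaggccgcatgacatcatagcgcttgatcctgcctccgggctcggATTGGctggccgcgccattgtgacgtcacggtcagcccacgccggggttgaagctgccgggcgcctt
Acsl4: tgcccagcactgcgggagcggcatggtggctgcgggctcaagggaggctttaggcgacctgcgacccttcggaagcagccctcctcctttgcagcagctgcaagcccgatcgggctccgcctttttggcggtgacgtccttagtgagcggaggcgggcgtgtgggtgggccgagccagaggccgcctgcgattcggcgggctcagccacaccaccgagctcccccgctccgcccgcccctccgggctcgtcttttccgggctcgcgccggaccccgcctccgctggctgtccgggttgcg
Pcyt1a: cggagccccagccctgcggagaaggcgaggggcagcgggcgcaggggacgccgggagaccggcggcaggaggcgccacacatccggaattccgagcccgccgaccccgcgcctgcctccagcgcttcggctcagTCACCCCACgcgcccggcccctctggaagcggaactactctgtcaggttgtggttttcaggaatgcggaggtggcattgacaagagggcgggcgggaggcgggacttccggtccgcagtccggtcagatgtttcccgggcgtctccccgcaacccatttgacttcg

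The motifs searched were the sterol regulatory element TCACNCCAC, bound by SREBP factors, the E-box CACGTG, the CCAAT box of NF-Y, and the nuclear receptor repeats DR1 and DR4. In Elovl5 an E-box began 161 bases before the start and CCAAT boxes began 71 and 17 bases before it, while Acsl4 held none of the 5 motifs. The sterol regulatory element of Pcyt1a began 116 bases before the annotated start, and the same site lay in the next window, 215 bases before its start. None of these matches overlapped another motif. Among the 34 measured members with a window, 1 held the sterol regulatory element, 3 an E-box (Elovl5, Lpin2 and Lpin3) and 20 a CCAAT box. Counted the same way, by gene over any of its windows, 1.44%, 8.09% and 41.1% of the 27025 genes in the table held these motifs. DR1 and DR4 were in 0 members and in 0.05% and 0.01% of genes. A match is a string of letters in this window only.

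**Figure D1:**
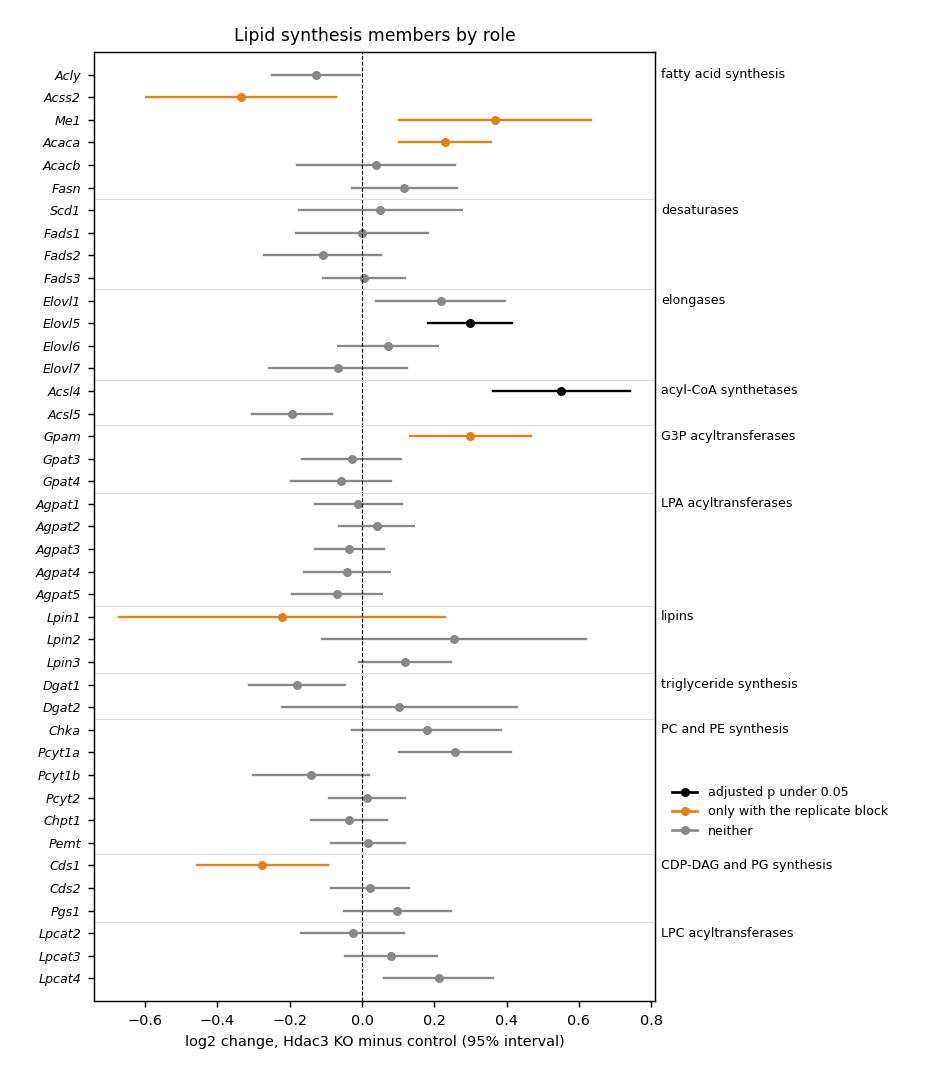
Log2 change of each measured member, KO minus control, by role (points; horizontal lines are 95% intervals from limma without the block, 5 lungs per group). Acsl4 and Elovl5 (black) lie at 0.55 and 0.30; the 6 members called only with the replicate block (orange) lie between -0.33 and 0.37. G3P is glycerol-3-phosphate, LPA lysophosphatidic acid, PC and PE phosphatidylcholine and phosphatidylethanolamine, DAG diacylglycerol, PG phosphatidylglycerol and LPC lysophosphatidylcholine.

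In fatty acid synthesis, 0 of 6 measured members were called without the block, and with it 2 rose and 1 fell. Here and for each role or list below, the shares of all genes called were 3.12% without the block and 4.72% with it. Acaca encodes acetyl-CoA carboxylase, which makes the malonyl-CoA that commits carbon to fatty acids. Its log2 levels were 9.47, 9.55, 9.49, 9.53 and 9.31 in the KO lungs and 9.25, 9.37, 9.22, 9.16 and 9.20 in the control lungs. Only control 2 reached into the KO range, above KO 5. The log2 change was 0.23 ± 0.06 (SE, n = 5 per group, adjusted p = 0.0580), and the adjusted p was 0.0423 with the block, 0.0158 without KO 5 and 0.0354 without control 2. Leaving out each other lung in turn gave adjusted p from 0.114 to 0.139.

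Me1, the cytosolic malic enzyme that supplies NADPH for chain synthesis, had levels of 9.91, 9.85, 9.58, 9.92 and 9.37 in the KO lungs and 9.56, 9.57, 9.10, 9.25 and 9.30 in the control lungs. It was higher in KO in 5 of 5 same-numbered pairs, by 0.07 to 0.67, with KO 5 inside the control range. The log2 change was 0.37 ± 0.12 (SE, adjusted p = 0.161, 0.0396 with the block and 0.0376 without KO 5), and leaving out each other lung in turn gave adjusted p from 0.136 to 0.327.

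Acss2 makes acetyl-CoA from acetate in the cytosol and nucleus. Its levels were 9.07, 9.17, 9.12, 8.54 and 8.73 in the KO lungs and 9.38, 9.43, 9.24, 9.21 and 9.05 in the control lungs. KO 4 and KO 5 were lowest, and the other KO lungs overlapped the control range. The change was -0.33 ± 0.12 (SE, adjusted p = 0.214, and 0.0441 with the block), with KO lower in 5 of 5 pairs.

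Acly, ATP citrate lyase, which makes acetyl-CoA from citrate, had levels of 10.15, 10.12, 10.15, 10.18 and 9.96 in the KO lungs and 10.19, 10.34, 10.21, 10.31 and 10.17 in the control lungs. The KO lungs were lower in 5 of 5 pairs, as 9.07% of all genes were, and the groups overlapped only where KO 4 lay above control 5. The change of -0.13 ± 0.06 (SE) was called in neither fit (adjusted p = 0.343, and 0.216 with the block).

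Fasn, fatty acid synthase, had levels of 12.01, 11.94, 11.95, 11.93 and 11.68 in the KO lungs and 11.84, 11.86, 11.67, 11.73 and 11.82 in the control lungs. Apart from KO 5, each KO lung lay above all control lungs. The change over all lungs was 0.12, with a 95% interval of -0.03 to 0.26 (adjusted p = 0.506, and 0.409 with the block). Acacb, the mitochondrial carboxylase isoform that restrains fatty acid oxidation, changed by 0.04 ± 0.10 (SE, adjusted p = 0.933).

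Of the 4 measured desaturases 0 were called in either fit. Scd1, which introduces the double bond of oleate and palmitoleate, had levels of 12.63, 12.41, 12.35, 12.34 and 11.98 in the KO lungs and 12.36, 12.47, 12.18, 12.25 and 12.21 in the control lungs. KO 1 was the highest lung and KO 5 the lowest, and the groups overlapped widely. The change was 0.05 with an interval of -0.17 to 0.28 (adjusted p = 0.910). Fads1 and Fads2, the desaturases of polyunsaturated fatty acids that act beside Elovl5, changed by 0.00 ± 0.08 and -0.11 ± 0.07 (SE, adjusted p = 0.999 and 0.607). Fads3, which lies next to them on chromosome 19, changed by 0.00 ± 0.05 (SE, adjusted p = 0.986).

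Of the 4 measured elongases 1 was called. Elovl5 levels were 11.25, 11.24, 11.31, 11.16 and 11.07 in the KO lungs and 10.92, 10.86, 10.96, 10.94 and 10.85 in the control lungs. All KO lungs lay above all control lungs, with KO 5 nearest to them. The means were 11.21 ± 0.09 in KO and 10.91 ± 0.05 in control lungs (SD, n = 5 each), a log2 change of 0.30 ± 0.05 (SE, adjusted p = 0.00838, exact permutation p = 0.00794, two-sided, the smallest that 5 against 5 allows).

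Elovl1, which elongates saturated very long chains, had levels of 8.97, 9.16, 9.15, 9.38 and 8.93 in the KO lungs and 8.81, 8.85, 8.86, 9.03 and 8.96 in the control lungs. KO 4 stood highest, and KO 1 and KO 5 lay inside the control range. The change was 0.22 ± 0.08 (SE) and was called in neither fit (adjusted p = 0.231, and 0.103 with the block). The block without pair 5 called it (adjusted p = 0.0401), and without each other pair gave adjusted p from 0.173 to 0.296. Elovl6, which elongates palmitate, changed by 0.07 ± 0.06 (SE, adjusted p = 0.712), and Elovl7 by -0.07 ± 0.09 (SE, adjusted p = 0.829).

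Of the 2 measured acyl-CoA synthetases 1 was called. Acsl4, which is X-linked, prefers arachidonate and related polyunsaturated chains. Its levels were 10.96, 11.03, 10.95, 11.02 and 10.55 in the KO lungs and 10.39, 10.46, 10.26, 10.35 and 10.29 in the control lungs. All KO lungs lay above all control lungs, and KO 5 stood well below the other KO lungs. The means were 10.90 ± 0.20 in KO and 10.35 ± 0.08 in control lungs (SD, n = 5 each), a change of 0.55 ± 0.09 (SE, adjusted p = 0.00390, exact permutation p = 0.00794, two-sided). Without KO 5 the change was 0.64 (adjusted p = 6.22e-05), and leaving out each other lung in turn gave adjusted p from 0.00710 to 0.0137.

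The sex-linked genes bear on an X-linked member. Xist stood at 11.47 in KO 1 and 11.21 in control 1, and between 4.95 and 5.13 in the other lungs. The Y-linked Uty stood at 4.32 in KO 1, 4.53 in KO 5 and 4.39 in control 1, and between 9.78 and 9.94 elsewhere, so KO 5 was low for both. Among the 3 KO and 4 control lungs with Y-linked transcripts, a choice made after the data were seen, Acsl4 was higher by 0.66 (adjusted p = 0.00152) and Elovl5 by 0.33 (adjusted p = 0.0338), and these were again the 2 members called.

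Acsl5, an acyl-CoA synthetase of the endoplasmic reticulum and mitochondria, had levels of 10.17, 10.21, 10.06, 10.30 and 10.13 in the KO lungs and 10.38, 10.41, 10.34, 10.39 and 10.32 in the control lungs. All KO lungs lay below all control lungs, KO 4 closest. The change of -0.19 ± 0.05 (SE) missed the threshold in both fits (adjusted p = 0.0692, and 0.0518 with the block, exact permutation p = 0.00794, two-sided) and was called without KO 4 (adjusted p = 0.0347), while leaving out each other lung in turn gave adjusted p from 0.101 to 0.155.

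**Figure D2:**
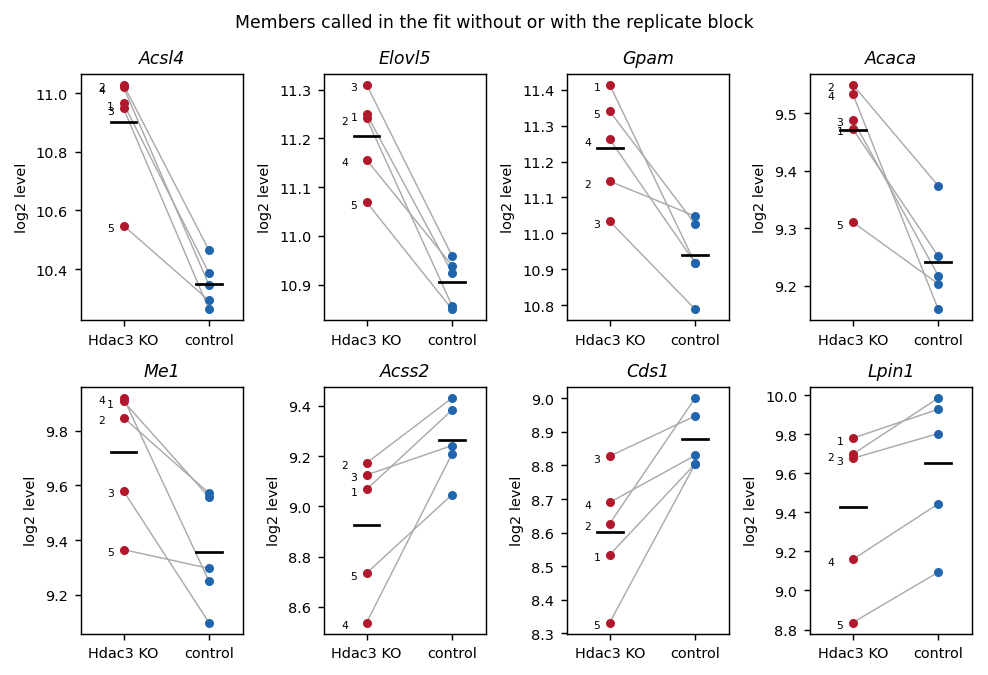
Log2 level per lung of the 8 members called without or with the replicate block; red points are KO lungs (left), blue points control lungs (right), black bars group means, and grey lines join lungs of the same number, printed at the KO points. The vertical axes do not start at 0. Acsl4 and Elovl5 do not overlap between groups, and the lines of Lpin1 run nearly parallel over a wide range of levels.

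In the glycerol phosphate route, Gpam encodes the mitochondrial acyltransferase that adds the first chain to glycerol-3-phosphate. Its levels were 11.41, 11.15, 11.03, 11.26 and 11.34 in the KO lungs and 10.92, 11.05, 10.79, 10.92 and 11.03 in the control lungs. KO 3 lay just inside the control range and the other KO lungs above it. The change was 0.30 ± 0.08 (SE, adjusted p = 0.0584), and Gpam was called with the block (adjusted p = 0.0290) and without KO 3 (adjusted p = 0.0270), while leaving out each other lung in turn gave adjusted p from 0.0644 to 0.141. Gpat3 and Gpat4, the isoforms of the endoplasmic reticulum, changed by -0.03 ± 0.06 and -0.06 ± 0.06 (SE, adjusted p = 0.917 and 0.779).

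The 5 lysophosphatidic acid acyltransferases, which add the next chain, were among the steadiest members. Agpat1 to Agpat5 changed by between -0.07 and 0.04, and the lowest adjusted p was 0.693, and 0.501 with the block.

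The lipins dephosphorylate phosphatidic acid to diacylglycerol, and Lpin1 and Lpin2 had the widest spread of all 41 members among the KO lungs (SD 0.41 and 0.42). Lpin1 levels were 9.78, 9.70, 9.68, 9.16 and 8.84 in the KO lungs and 9.93, 9.99, 9.80, 9.44 and 9.09 in the control lungs. Numbers 4 and 5 were lowest in both groups, and each KO lung lay below the control lung of its number, by 0.13 to 0.29. The log2 change was -0.22 with an SE of 0.21 without the block (adjusted p = 0.735) and 0.05 with it (adjusted p = 0.0358). Lpin2 had levels of 10.38, 10.42, 10.32, 9.87 and 9.44 in the KO lungs and 9.93, 9.95, 9.86, 9.83 and 9.59 in the control lungs. KO 1 to KO 3 lay above all control lungs and KO 5 below them, so its change of 0.25 had an interval of -0.11 to 0.62 (adjusted p = 0.591, and 0.227 with the block). Lpin3 was higher by 0.12 ± 0.06 (SE, adjusted p = 0.418), in 5 of 5 pairs.

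With the block, the calls of Acss2, Cds1 and Lpin1 were each lost when any 1 of the 5 pairs was left out, at adjusted p from 0.0501 to 0.136 across these fits. Gpam was called without pair 2 alone, and Acaca and Me1 without pair 5 alone. Acsl4 and Elovl5 were called in all 5 of these fits.

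Triglyceride is closed by Dgat1 and Dgat2, acyltransferases of separate families. Dgat1 levels were 8.71, 8.71, 8.70, 8.59 and 8.57 in the KO lungs and 8.81, 8.89, 8.77, 8.72 and 9.00 in the control lungs. All KO lungs lay below all control lungs, although KO 1 and control 4 were close, at 8.7133 and 8.7172. The change of -0.18 ± 0.06 (SE) was called in neither fit (adjusted p = 0.178, and 0.170 with the block, exact permutation p = 0.00794, two-sided). That permutation p is unadjusted and restates the lack of overlap, which 5.11% of all genes shared. Dgat2 levels were 9.36, 9.33, 9.14, 8.82 and 8.94 in the KO lungs and 9.16, 9.39, 8.98, 8.52 and 9.02 in the control lungs. The lungs of number 4 were lowest in both groups, and the groups overlapped throughout. The change was 0.10 with an interval of -0.22 to 0.43 (adjusted p = 0.848, and 0.481 with the block).

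Phosphatidylcholine is the main surfactant lipid, and Pcyt1a encodes the enzyme that makes CDP-choline and sets the rate of its synthesis. Pcyt1a levels were 9.09, 9.19, 9.11, 9.37 and 9.43 in the KO lungs and 9.04, 8.89, 8.97, 8.97 and 9.04 in the control lungs. All KO lungs lay above all control lungs, with KO 4 and KO 5 highest, so that KO 5 was not low for this gene. The change of 0.26 ± 0.07 (SE) was called in neither fit (adjusted p = 0.0826, and 0.0608 with the block, exact permutation p = 0.00794, two-sided). The block without pair 1 called it (adjusted p = 0.0493), and without each other pair gave adjusted p from 0.104 to 0.198.

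The rest of that branch, with 0 of 6 measured members called in either fit, was mixed. Chka, choline kinase at the entry to the branch, was higher by 0.18 ± 0.09 (SE, adjusted p = 0.463, and 0.0839 with the block). It was higher in 5 of 5 pairs, as 8.7% of all genes were. A second Chka probe set, at 5.99 in KO and 6.05 in control lungs, changed by -0.05 ± 0.11 (SE). Chpt1, which joins choline phosphate to diacylglycerol, changed by -0.04 ± 0.05 (SE) and Pcyt2, of phosphatidylethanolamine synthesis, by 0.01 ± 0.05 (SE, adjusted p = 0.832 and 0.949). Pemt, which methylates phosphatidylethanolamine in liver, and the X-linked Pcyt1b, the other isoform of the CDP-choline enzyme, changed by 0.02 ± 0.05 and -0.14 ± 0.07 (SE, adjusted p = 0.936 and 0.450).

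**Figure D3:**
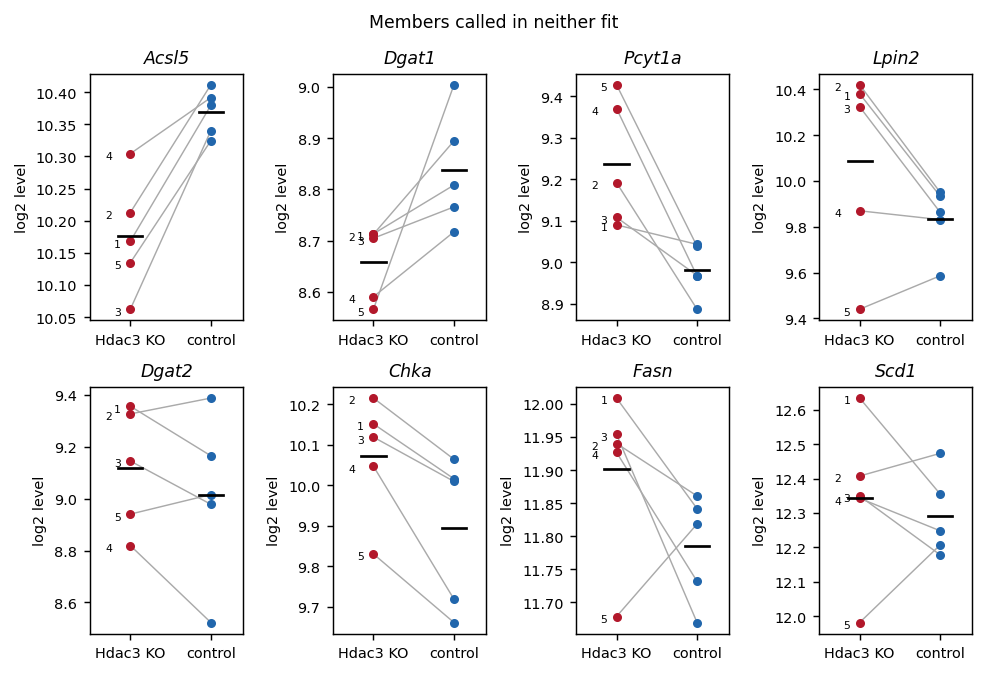
Log2 level per lung of 8 members called in neither fit, drawn as for the called members (red KO lungs left, blue control lungs right, bars group means, lines same-numbered lungs; axes do not start at 0). Acsl5, Dgat1 and Pcyt1a do not overlap between groups, while KO 5 lies lowest of all lungs for Lpin2 and Scd1.

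CDP-diacylglycerol leads to phosphatidylglycerol and phosphatidylinositol. Cds1, which makes it from phosphatidic acid, had levels of 8.53, 8.63, 8.83, 8.69 and 8.33 in the KO lungs and 8.80, 9.00, 8.95, 8.83 and 8.80 in the control lungs. KO 3 alone overlapped the control range. The change was -0.28 ± 0.08 (SE, adjusted p = 0.118, and 0.0439 with the block), while the second synthase, Cds2, changed by 0.02 ± 0.05 (SE, adjusted p = 0.914).

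Pgs1, which commits CDP-diacylglycerol to phosphatidylglycerol, had levels of 9.50, 9.47, 9.33, 9.47 and 9.15 in the KO lungs and 9.31, 9.35, 9.29, 9.25 and 9.22 in the control lungs. KO 1, KO 2 and KO 4 lay above the control range and KO 5 below it. The change was 0.10 with an interval of -0.05 to 0.25 (adjusted p = 0.615).

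The lysophosphatidylcholine acyltransferases exchange the acyl chains of finished phospholipid. Lpcat4 levels were 8.28, 8.46, 8.17, 8.24 and 8.12 in the KO lungs and 8.06, 8.05, 8.17, 8.01 and 7.92 in the control lungs. KO 5 and control 3 made the groups overlap, and the change of 0.21 ± 0.07 (SE) was called in neither fit (adjusted p = 0.155, and 0.100 with the block). Lpcat3, which places arachidonate and linoleate in phosphatidylcholine, had levels of 11.01, 10.95, 10.95, 10.81 and 10.74 in the KO lungs and 10.83, 10.90, 10.78, 10.77 and 10.79 in the control lungs. KO 1 to KO 3 lay above the control range and KO 5 below it, with a change of 0.08 and an interval of -0.05 to 0.21 (adjusted p = 0.641). Lpcat2, which also makes platelet-activating factor, changed by -0.03 ± 0.07 (SE, adjusted p = 0.932).

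The KO lungs were not alike across the members. KO 5 was the lowest KO lung for 23 of 41 members (56.1%), against 23.1% of all genes, and control 2 the highest control lung for 21 (51.2%), against 27.4%. The median difference between same-numbered KO and control lungs was 0.05, 0.03, 0.06, 0.04 and -0.08 for numbers 1 to 5, against -0.01 to 0.01 over all genes. In pair 5, 15 of 41 members were higher in KO, against 22 to 28 in the other pairs. Without KO 5, limma called 4 members higher (Acsl4, Elovl5, Acaca and Me1) and 0 lower. Calls over all 17919 genes rose as well, from 559 with all lungs to 699 without KO 5.

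Other enzymes of the same pathways were measured for 34 of 36 listed genes, and 3 rose and 1 fell in both fits (11.8%). Of all genes, 3.12% were called without the block and 4.72% with it. Mboat1, which acylates lysophosphatidylserine and lysophosphatidylethanolamine, had levels of 9.06, 9.00, 9.09, 9.43 and 8.96 in the KO lungs and 8.30, 8.42, 8.44, 8.38 and 8.42 in the control lungs. It was 64.1% higher (log2 change 0.71 ± 0.08, SE, adjusted p = 0.000349), with no overlap. Mogat2, a monoacylglycerol acyltransferase best known from the gut, was higher by 0.39 ± 0.07 (SE, adjusted p = 0.00600), and Lpcat1, which remodels surfactant phosphatidylcholine, by 26.5% (adjusted p = 0.00132), at 12.54 to 12.70 in the KO lungs and 12.26 to 12.36 in the control lungs.

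Acss1, the mitochondrial counterpart of Acss2, had levels of 8.99, 9.09, 9.12, 8.90 and 8.82 in the KO lungs and 9.46, 9.52, 9.44, 9.43 and 9.39 in the control lungs. All KO lungs lay below all control lungs, a fall of 27.4% (log2 change -0.46 ± 0.06, SE, adjusted p = 0.00120).

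Of 19 measured regulators of lipid synthesis 0 were called without the block. Srebf1, which encodes the SREBP-1 transcription factor of fatty acid genes, had levels of 9.62, 9.61, 9.71, 9.16 and 8.94 in the KO lungs and 9.27, 9.34, 9.01, 8.79 and 8.78 in the control lungs. It was higher in KO in 5 of 5 pairs, by 0.16 to 0.70, and numbers 4 and 5 were lowest in both groups, as for Lpin1. The change of 0.37 was called with the block (adjusted p = 0.0282) and not without it (adjusted p = 0.332). Mid1ip1, a partner of acetyl-CoA carboxylase that promotes its activity, was called lower with the block (-0.33 ± 0.08, SE, adjusted p = 0.0491, and 0.0559 without it). Pparg and the liver X receptor gene Nr1h3 changed by 0.11 ± 0.11 and -0.02 ± 0.07 (SE, adjusted p = 0.760 and 0.945). Of 17 lipid droplet and lipolysis genes 0 were called by limma in either fit, and 0 had an unadjusted p under 0.05. Plin2, which coats lipid droplets, changed by 0.02 ± 0.08 (SE, adjusted p = 0.969).

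**Figure D4:**
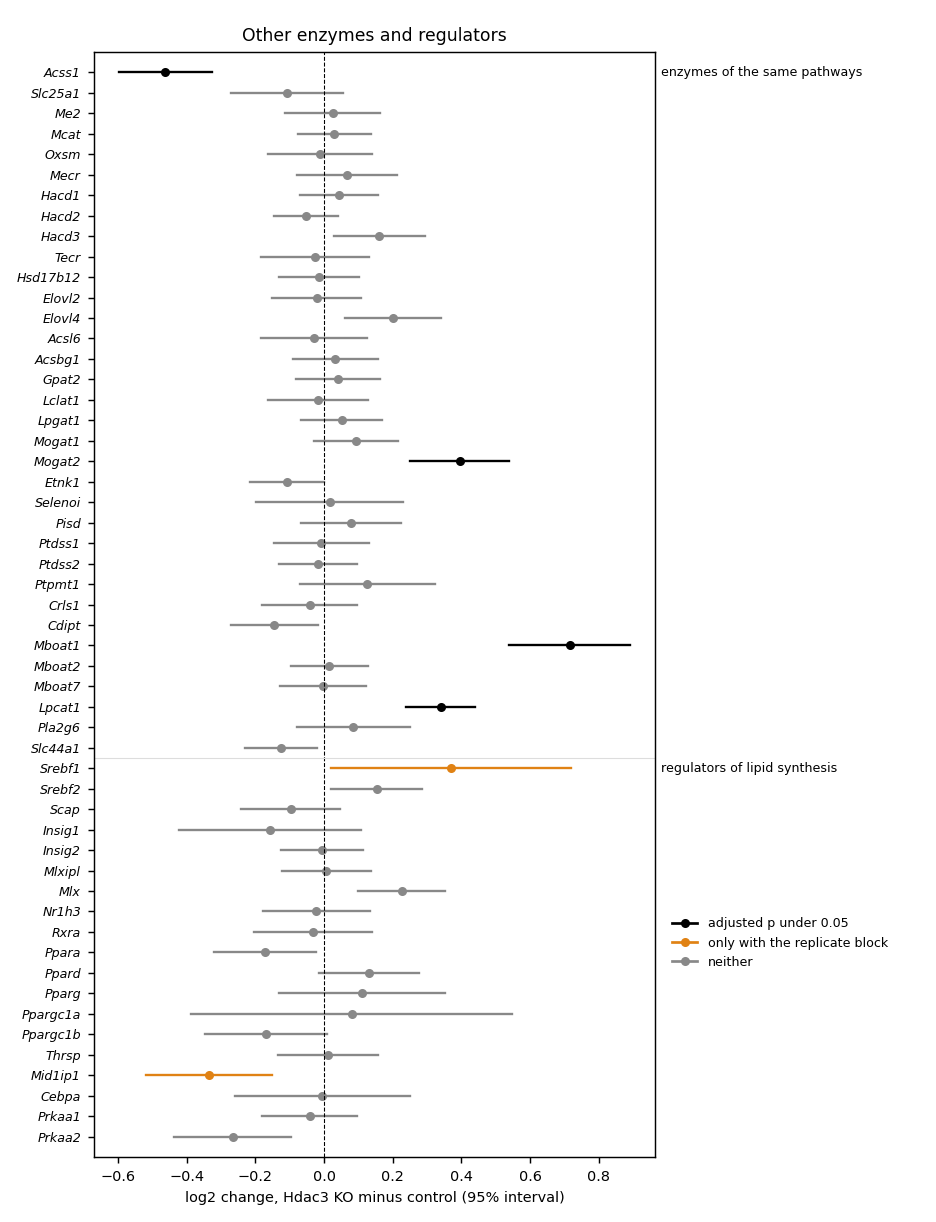
Log2 change, KO minus control, of the measured other enzymes and regulators (points; lines are 95% intervals from limma without the block, 5 lungs per group). Mboat1, Mogat2 and Lpcat1 lie to the right of 0 and Acss1 to the left in black; Srebf1 and Mid1ip1 (orange) were called only with the replicate block.

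Markers of the cell types that hold these enzymes were set beside the members, as sums of log2 levels over each list. The 17 AT2 markers summed to between 187.58 and 194.31 in the KO lungs and between 190.92 and 193.45 in the control lungs, with KO 5 lowest, and Etv5 rose and Hc fell in both fits, with S100g called higher by the block only. Sftpc, the defining AT2 marker, averaged 13.44 in KO and 13.46 in control lungs, so the labelled tissue carried it in both groups. Whether a change could show so close to the highest level on the arrays, 13.61, was not tested. Of the 17 markers 7 had a change above 0 and 10 below, with Etv5 at 0.61 and Hc at -1.74. Sftpa1 changed by -0.48 and was called in neither fit (adjusted p = 0.090, and 0.0608 with the block). The 9 lipofibroblast markers summed to between 89.91 and 90.88 in KO and between 89.70 and 91.31 in control lungs, and 0 were called in either fit. The sums of the 8 club cell markers did not overlap, at 75.10 to 78.44 in KO and 80.25 to 83.37 in control lungs. Of these markers 4 (50%) did not overlap by themselves and fell in both fits. Of all genes, 1.58% fell without the block and 2.44% with it. The sums of the 8 leukocyte markers did not overlap either, at 60.74 to 61.85 in KO and 61.97 to 62.94 in control lungs. Each of these markers overlapped by itself, 7 had a change below 0 and 1 above, and 2 fell with the block only. The 12 AT1 markers summed to between 129.75 and 132.93 in KO and between 129.28 and 130.75 in control lungs. Among them 11 had a change above 0 and 1, Pdpn, below it. Pdpn fell in both fits (log2 change -0.52, adjusted p = 0.00974). Rtkn2 was called higher with the block only (adjusted p = 0.00862). Aqp5 changed by 0.47 and was called in neither fit (adjusted p = 0.115, and 0.074 with the block). The 7 measured ciliated cell markers summed to between 56.94 and 57.52 in KO and between 56.98 and 57.64 in control lungs. Of these, 4 had a change above 0 and 3 below. Dnah9 fell in both fits without overlap (log2 change -0.27, adjusted p = 0.00663). Dnah5 was higher in KO without overlap (log2 change 0.15) and was called in neither fit (adjusted p = 0.101, and 0.0825 with the block). The 6 endothelial markers summed to between 64.64 and 65.99 in KO and between 65.05 and 65.88 in control lungs, and Car4 was called higher with the block only (adjusted p = 0.0172). Of 7 erythroid markers 1 was measured, Slc4a1, at 8.45 to 8.91 in KO and 8.17 to 8.67 in control lungs, and it was called higher with the block only (adjusted p = 0.0461). Of the adipocyte list 7 of 10 markers were measured, with 0 called in either fit. Their average, 6.15 in KO and 6.17 in control lungs, lay below the level of 6.3 given above. Ucp1 stood at 5.53 in KO and 5.57 in control lungs. Plin1, Cidec, Pck1 and Retn lay above 6.3 in both groups, with Retn highest at 6.78 in KO and 6.73 in control lungs. The part of these marker shifts in the changes above was not tested.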

How the data were processed

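The deposited values are log2 probe set levels that the authors made with oligo, RMA and limma, per the submitters' processing notes, without versions. RNA (100 ng per lung, per the labels) was amplified from a poly(T) primer. The sources used here give no build for the array's annotation. Of 24888 probe sets, 18922 carried 1 symbol in the platform annotation. Each gene took its probe set with the highest mean over 10 lungs. Of the members, 3 (Chka, Gpat3 and Lpin2) had a second probe set, and only that of Chka changed in the other direction. KO and control were compared with limma 3.58.1 (lmFit and eBayes, two-sided, in R 4.3.3), Benjamini-Hochberg adjusted over 17919 genes at 0.05, and tested on simulated data. Precision is limited by how many lungs were arrayed, and the labels call the samples biological replicates. Exact permutation tests ran over 252 assignments without adjustment, and every gene whose groups do not overlap gets the same p of 0.00794.

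Same-numbered lungs deviated together from their group means (correlations 0.319, 0.154, 0.183, 0.485 and 0.360). Lungs of different numbers gave -0.0829 at the median and 0.33 at most, so numbers 1 to 3 did not exceed them. The block treats the numbers as a pairing on these data, not from a label. On the second principal component, KO 4 and KO 5 stood at -13.23 and -17.03, and KO 1 to KO 3 at -0.64 to 3.54. Controls 4 and 5 stood at -2.56 and -2.84, and controls 1 to 3 at 8.89 to 14.49. Whether the numbers mark 5 pairs, or only set 4 and 5 apart from the rest, was not tested. Per-lung values are given for members called in a fit, members with an unadjusted p under 0.05 and fixed branch enzymes. Lpin2, and Pcyt1a as a printed sequence, were chosen after their values were seen. Chka, drawn per lung in a figure, met none of these rules. Members and lists were chosen with earlier results of these data known.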

Additional observations from a re-analysis of the deposited data

Results flagged for a closer look

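A single lung stood apart from the other 4 of its group for 9 of 82 member groups (11.0%), by a gap that exceeded Dixon's 95% critical share of the group's range; chance flags about 1 in 20. Of these, 4 were KO 5 as the lowest KO lung. Acly stood at 9.96 there (next KO lung 10.12), Fasn at 11.68 (next 11.93), Acsl4 at 10.55 (next 10.95) and Pcyt2 at 8.65 (next 8.76). Acsl4 remained called higher with and without KO 5. Other low KO values were KO 2 for Fads3 at 11.43 (next 11.59) and KO 1 for Gpat3 at 6.26 (next 6.46). High KO values were KO 4 for Elovl7 at 7.87 (next 7.44) and KO 3 for Pcyt1b at 6.51 (next 6.41). In the control lungs, control 3 was low for Agpat5 at 9.14 (next 9.31).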

How the results depend on the processing

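Without the replicate block 559 genes were called, with 2 members higher and 0 lower; with the replicate block as pairing the counts were 846, 5 and 3. Among the 8959 genes above the median level 457 were called, and with a trended robust prior 650 of all genes. In both settings 4 members were called higher and 1 lower (Acsl5). With array weights 757 genes were called, with 3 members higher and 1 lower. The cause was not tested, but the median-level setting tests fewer genes. Leaving out 1 lung, or 1 pair under the block, gave 393 to 699 genes, 2 to 5 members higher, 0 to 1 lower and a median change of 0.0043 to 0.0526. Without KO 5, 4 were higher; without pair 5 under the block, 5 were (Elovl1 added); without KO 4, 1 was lower. Among lungs with Y-linked transcripts, 319 genes were called from fewer samples. Floored values, centred arrays, quantile normalization and every probe set kept the counts at 2 or 3 higher and 0 lower. A count over 19 settings, the reported one included, left out the lungs with Y-linked transcripts and the fits without 1 pair. Across these 19, Acsl4 (0.52 to 0.64) and Elovl5 (0.27 to 0.33) were called each time. Acaca was called in 7, Gpam and Acsl5 (lower) in 4 each, Me1 in 2, and Acss2, Cds1 and Lpin1 in 1 each. The block changed no call of another member. With 5 lungs per group, the median SE of a member was 0.065.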
